A study of Mus musculus with 2 samples.

Results

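Core genes of the actin cytoskeleton, 10 in number and chosen by name, were described in G1E-ER4 cells: Actb and Actg1, Pfn1, Cfl1, Tmsb4x, Tmsb10, Myh9, Myh10, Myl6 and Tpm3. All 10 were found among the 43346 Ensembl genes of the deposited tables, of which 21474 are protein-coding. G1E-ER4 is an immortalized mouse erythroid line derived from Gata1-null G1E cells, in which GATA1 is restored as a fusion with an estrogen receptor domain that responds to estradiol. The labels call the cells Gata1-restored, say that estradiol (E2) induced their differentiation, give no dose or duration, and record a male, postnatal source aged 0 day. Polyadenylated RNA was sequenced as paired ends from 2 libraries, replicate 2 and replicate 1, which form 1 group. Both libraries carry the restored Gata1 and the estradiol treatment, so no condition can be compared. They are labelled biological replicates but cite the same biosample record. Whether they came from separate cultures is not known, and the spread between them may be technical.

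Actin filaments are polymers of actin subunits that cells assemble and take apart all the time. Profilin carries actin monomers to growing filament ends, beta-thymosins hold monomers in reserve, and cofilin severs older filaments and returns their subunits to the pool. Nonmuscle myosin II pulls on the filaments and tropomyosin coats them. In erythroid cells this machinery serves division and, late in maturation, enucleation, and short actin filaments capped by tropomodulin tie the spectrin network to the red cell membrane.

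Replicate 2 had 51923116 estimated counts in genes and replicate 1 had 68901065. All 10 erythroid marker genes were present at 1 TPM or more in both libraries, TPM being a transcript level corrected for length and depth. The globin gene Hba-a1 led them at 8936 in replicate 2 and 6746 TPM in replicate 1. The lowest of them, singled out after its values were seen, was the haem synthesis gene Alas2 at 2.00 in replicate 2 and 1.44 TPM in replicate 1. Of 44 markers of 6 other cell types 4 reached 1 TPM in both libraries, and the 44 together summed to 70.6 in replicate 2 and 54.0 TPM in replicate 1. The highest was the platelet glycoprotein gene Gp1ba at 34.9 in replicate 2 and 30.99 TPM in replicate 1. The muscle markers were led by Des, the intermediate filament protein desmin, at 1.54 ± 0.141 TPM, and the macrophage and granulocyte markers by Cd68 at 1.19 ± 0.0424 TPM (mean ± SD, n = 2). No gene of the fibroblast, endothelial or lymphocyte lists reached 1 TPM in both libraries.

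The 10 genes fell into 3 abundance classes. Pfn1, Actb and Cfl1 averaged 1099 TPM or more, the 4 genes Myl6, Tpm3, Myh9 and Actg1 averaged between 151 and 245 TPM, and the thymosin genes and Myh10 lay near or below 1 TPM. In all, 8 of 10 were detected, meaning 1 TPM or more in both libraries, and Tmsb4x and Myh10 were not. Together the genes held 0.819% of all TPM in replicate 2 and 0.858% in replicate 1, and Pfn1 alone made up 56.0% of that in replicate 2 and 69.4% in replicate 1.

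**Figure D1:**
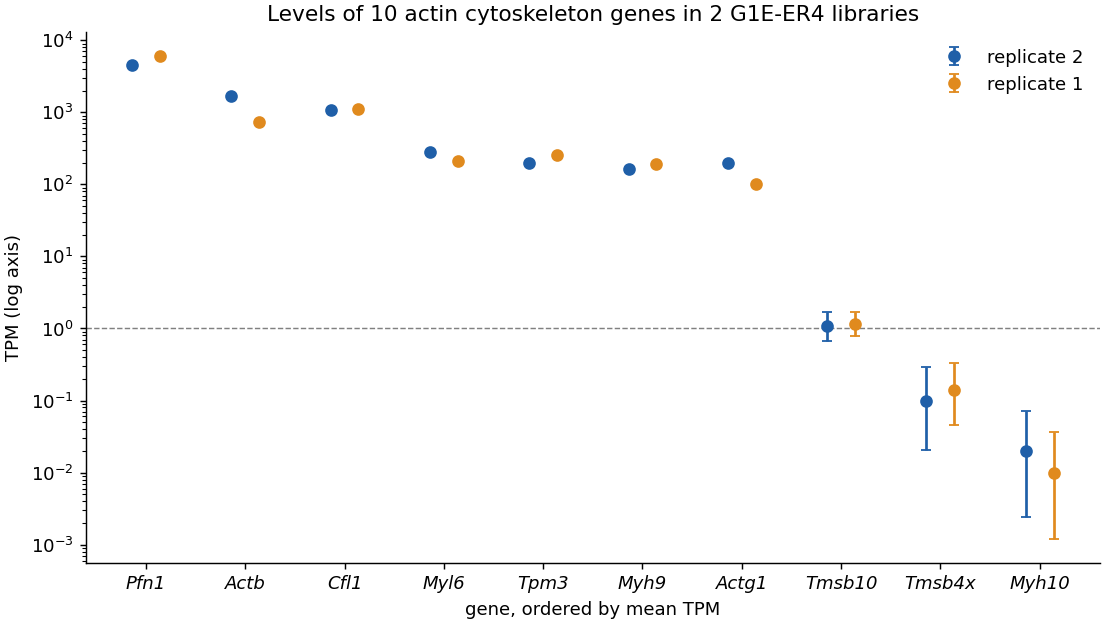
TPM of each of the 10 genes in replicate 2 (blue) and replicate 1 (orange) on a log axis, with 95% exact Poisson intervals of the count as bars and a dashed line at 1 TPM. The 7 genes on the left lie above 100 TPM in both libraries, Actb and Actg1 show the widest gaps among them, and Tmsb4x and Myh10 lie below the line.

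Beta-actin and gamma-actin, encoded by Actb and Actg1, are the pair of actins that nonmuscle cells use, and their proteins are nearly identical. Actb (ENSMUSG00000029580) is protein-coding and lies at chr5:142903115-142906754 on the minus strand of mm10. Actg1 (ENSMUSG00000062825) is protein-coding and lies at chr11:120345690-120348542, also on the minus strand. Actb stood at 1696 in replicate 2 and 736 TPM in replicate 1, averaging 1216 ± 678 TPM (SD, n = 2), rank 101 among the protein-coding genes. Actg1 stood at 200.9 in replicate 2 and 102 TPM in replicate 1, averaging 151 ± 70.02 TPM (SD, n = 2), rank 968. Both actins were higher in replicate 2, and every Actb value lay above every Actg1 value. Actb exceeded Actg1 by 8.44-fold in replicate 2 and 7.23-fold in replicate 1 on the TPM scale.
The coding sequences show how far the reads of the 2 actin genes can be told apart, so their first 60 bases are given 5′ to 3′ from the GENCODE M21 transcripts, with capitals where the 2 differ.
Actb-201: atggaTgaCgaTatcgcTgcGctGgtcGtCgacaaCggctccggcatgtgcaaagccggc
Actg1-204: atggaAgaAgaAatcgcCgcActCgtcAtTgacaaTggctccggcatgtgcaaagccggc
This stretch holds 9 differences, and the whole coding sequences of 1128 bases each differ at 128 positions, an identity of 88.7%. Of the 31-base words in Actb transcripts 3.76% occur in Actg1 transcripts. A larger share, 23.6%, occurs in any other gene, with 15.2% in Lrrc58 and 9.82% in the pseudogene Gm15725. For Actg1, 6 annotated genes have at least 50% of their 31-base words in it. Among these are the miRNA genes Gm23419, Gm25241 and Mir6935, with 0 counts, and Gm23419 and Mir6935 overlap exons of Actg1 itself. The other 3 are processed pseudogenes that carried counts. The highest was the processed pseudogene Gm12715, which shares 93.8% of its words with Actg1 and was listed with 1676 counts in replicate 2 and 1449 in replicate 1. Actg1 itself had 8897 counts in replicate 2 and 7994 in replicate 1, and the deposited posterior SD of that assignment was 128 and 87.0 counts in the same libraries. The copies together held 18.8% as many counts as Actg1 in replicate 2 and 18.2% in replicate 1, and the Actg1 level is uncertain for this reason.

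The transcript models behind these gene levels differed between the libraries. For Actb the full-length coding model Actb-201, of 1920 nt, held 55.2% of the gene's TPM in replicate 2 and 47.8% in replicate 1. Actb-206, a model of 894 nt that GENCODE classes as a processed transcript without a reading frame, held 28.2% in replicate 2 and 48.4% in replicate 1, where it led narrowly. The short coding model Actb-202 held 15.6% in replicate 2 and 0.55% in replicate 1. In counts, which are not divided by length, Actb-201 took 77.8% in replicate 2 and 68.8% in replicate 1.
Actg1 was less settled. The retained-intron model Actg1-207, of 864 nt, led in replicate 2 with 56.0% against 12.9% in replicate 1. The coding model Actg1-204, of 1827 nt, held 13.2% in replicate 2 against 52.7% in replicate 1, where it led. Actg1-206, classed as a target of nonsense-mediated decay, held 22.9% in replicate 2 and 0% in replicate 1. The retained-intron model Actg1-209 held 0.05% in replicate 2 and 23.2% in replicate 1. When only protein-coding transcripts were summed, an alternative chosen after seeing the data, Actg1 stood at 41.1 in replicate 2 and 64.5 TPM in replicate 1, so the order of the libraries was the opposite of that of the gene level. The same sum for Actb was 1209 in replicate 2 and 376 TPM in replicate 1, a ratio of 3.21, against 2.30 for the whole gene. On coding transcripts alone Actb exceeded Actg1 by 29.4-fold in replicate 2 and 5.83-fold in replicate 1.

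**Figure D2:**
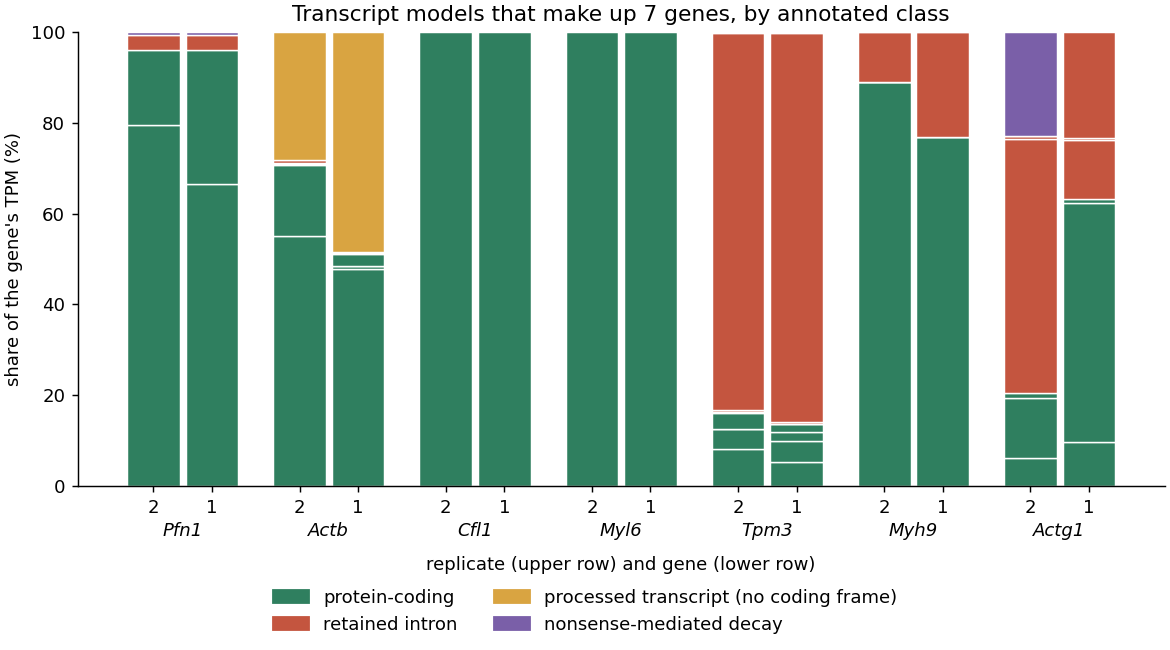
Share of each gene's TPM held by its transcript models, in percent, for the 7 genes above 100 TPM, with replicate 2 left of replicate 1 and colours for the annotated class; white lines separate models. Cfl1 and Myl6 are a single coding model, Tpm3 is mostly a retained-intron model in both libraries, and the make-up of Actg1 differs between the libraries.

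Pfn1 encodes profilin-1, which binds actin monomers and delivers them to growing filament ends. It was the most abundant of the 10 genes, at 4585 in replicate 2 and 5953 TPM in replicate 1, averaging 5269 ± 967 TPM (SD, n = 2) and rank 19 among the protein-coding genes. The gene (ENSMUSG00000018293) is protein-coding and lies at chr11:70651850-70654644 on the minus strand. Both Pfn1 values lay far above the highest value of the next gene, 1696 TPM for Actb. Pfn1-201 led in both libraries with 79.5% of the gene's TPM in replicate 2 and 66.6% in replicate 1. The shorter coding model Pfn1-202 followed with 16.6% in replicate 2 and 29.4% in replicate 1. Coding models together held 96.1% in replicate 2 and 96.0% in replicate 1, and 0.329% of the gene's 31-base words occur in any other gene.

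Cfl1 encodes cofilin-1, the nonmuscle cofilin, which severs filaments. It lies at chr19:5490455-5495201 on the plus strand (ENSMUSG00000056201, protein-coding). Cfl1 was at 1071 in replicate 2 and 1127 TPM in replicate 1, averaging 1099 ± 39.9 TPM (SD, n = 2) and rank 117. Its libraries lay closer together, relative to the mean, than those of any other gene above 100 TPM among the 10. The annotation used for counting, GENCODE M4, gave it 1 transcript model, so no share could vary. An exon overlaps Snx32 on the opposite strand, which had 34 counts in replicate 2 and 4 in replicate 1. Cfl1 itself had 48212 counts in replicate 2 and 67164 in replicate 1.
Set against the sum of both actins, Pfn1 stood at 2.42-fold in replicate 2 and 7.10-fold in replicate 1, and Cfl1 at 0.565-fold in replicate 2 and 1.34-fold in replicate 1. Both ratios were lower in replicate 2, where Actb was higher, and for Cfl1 the ratio lay on either side of 1. The ratio of Pfn1 to Cfl1 varied less, at 4.28 in replicate 2 and 5.28 in replicate 1.

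The beta-thymosins, small peptides that sequester actin monomers, were near the limit of detection. Tmsb4x encodes thymosin beta-4, a major monomer buffer of many blood cells, and lies at chrX:167207093-167209315 on the minus strand (ENSMUSG00000049775, protein-coding). It had 3 counts in replicate 2, or 0.10 TPM with a 95% exact Poisson interval of 0.0206 to 0.292. In replicate 1 it had 5 counts, or 0.14 TPM with an interval of 0.0455 to 0.327. Tmsb10, which encodes thymosin beta-10, lies at chr6:72957347-72958748 on the minus strand (ENSMUSG00000079523, protein-coding). It had 20 counts in replicate 2, or 1.08 TPM with an interval of 0.660 to 1.67, and 29 counts in replicate 1, or 1.16 TPM with an interval of 0.777 to 1.67. Both intervals of Tmsb10 include 1 TPM, so its place among the detected genes is at the edge of what the depth can show, and on FPKM with a minimum of 1 it was not counted.
Their coding sequences, of 135 bases each, are short but distinct, and are shown 5′ to 3′ from GENCODE M21 because the low counts of Tmsb4x raise the question of whether its reads could fall to a related gene. Capitals mark the bases that differ.
Tmsb4x-201: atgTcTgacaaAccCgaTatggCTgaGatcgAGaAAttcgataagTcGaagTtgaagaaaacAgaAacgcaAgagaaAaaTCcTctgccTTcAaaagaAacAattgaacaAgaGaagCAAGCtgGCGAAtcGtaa
Tmsb10-203: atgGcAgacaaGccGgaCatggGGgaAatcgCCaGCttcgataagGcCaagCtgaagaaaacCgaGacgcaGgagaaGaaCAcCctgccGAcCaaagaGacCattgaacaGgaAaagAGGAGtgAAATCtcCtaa
The pair differs at 40 positions, an identity of 70.4%. No 31-base word of Tmsb4x, coding or not, occurs in another annotated gene, so no annotated copy shares a word of that length with it. Of the words of Tmsb10 32.0% occur elsewhere, and its closest copy with counts, Gm9844, was listed with 1.98 counts in replicate 2 and 3.02 in replicate 1. Tmsb4x made up 13.0% of the counts of both thymosin genes in replicate 2, with a 95% Clopper-Pearson interval of 2.78% to 33.6%, and 14.7% in replicate 1, with an interval of 4.95% to 31.1%. Summed, the actins exceeded the thymosins by 1607-fold in replicate 2 and 645-fold in replicate 1 on the TPM scale, from 23 thymosin counts in replicate 2 and 34 in replicate 1.

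Nonmuscle myosin II is built of a pair of heavy chains with essential and regulatory light chains. Myh9 encodes the heavy chain of form IIA and lies at chr15:77760587-77842175 on the minus strand (ENSMUSG00000022443, protein-coding). Myh10 encodes the heavy chain of form IIB and lies at chr11:68691559-68816632 on the plus strand (ENSMUSG00000020900, protein-coding). Myh9 was at 162 in replicate 2 and 190 TPM in replicate 1, averaging 176 ± 20.3 TPM (SD, n = 2) and rank 846. Being long, it drew 47615 counts in replicate 2 and 65577 in replicate 1. Myh10 had 2 counts in each library, 0.02 TPM in replicate 2 and 0.01 in replicate 1, all assigned to the retained-intron model Myh10-210, while every coding model of Myh10 was at 0. On the deposited posterior mean TPM Myh10-210 held 3.31% in replicate 2 and 3.28% in replicate 1, and every other model had a share above 0. Models with 0 counts and a posterior SD of 0 had such shares too, led by Myh10-209 at 33.9% in replicate 2 and 35.0% in replicate 1. These shares therefore cannot tell which model the 2 counts came from. Myh10 thus made up 0.00420% of the counts of both heavy chain genes in replicate 2, with a 95% Clopper-Pearson interval of 0.000509% to 0.0152%, and 0.00305% in replicate 1, with an interval of 0.000369% to 0.0110%. The heavy chain transcripts counted here were those of form IIA with hardly any IIB. The full-length model Myh9-201, of 7433 nt, held 89.0% of the gene's TPM in replicate 2 and 76.9% in replicate 1. It held 99.0% of the counts in replicate 2 and 97.7% in replicate 1. The remaining TPM went to Myh9-207, a retained-intron model of 723 nt, with 10.9% in replicate 2 and 23.1% in replicate 1. Restricted to coding models, Myh9 was at 144 in replicate 2 and 146 TPM in replicate 1, an SD of 1.68 TPM (n = 2).
Myl6 encodes the essential light chain that pairs with nonmuscle and smooth muscle heavy chains, and lies at chr10:128490860-128494145 on the minus strand (ENSMUSG00000090841, protein-coding). It was at 279 in replicate 2 and 212 TPM in replicate 1, averaging 245 ± 47.1 TPM (SD, n = 2) and rank 587. GENCODE M4 gave it 1 model, against 15 in M21, so isoform shares could not be read. Transcripts of Myl6 exceeded those of Myh9 by 1.72-fold in replicate 2 and 1.11-fold in replicate 1.

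Tpm3 encodes a tropomyosin with cytoskeletal and slow-muscle forms, which lies along filaments and governs access of myosin and cofilin. The gene (ENSMUSG00000027940) is protein-coding and lies at chr3:90072649-90100902 on the plus strand. It was at 197 in replicate 2 and 259 TPM in replicate 1, averaging 228 ± 44.0 TPM (SD, n = 2) and rank 641. Most of that level rested on Tpm3-212, a retained-intron model of 655 nt, with 83.1% of the gene's TPM in replicate 2 and 85.8% in replicate 1. It held 58.1% of the counts in replicate 2 and 63.2% in replicate 1. Coding models of Tpm3 summed to 32.3 in replicate 2 and 35.6 TPM in replicate 1, led by Tpm3-201 with 8.04% of the gene's TPM in replicate 2 and 5.28% in replicate 1. On all transcripts Tpm3 exceeded the sum of Tpm1, Tpm2 and Tpm4 by 1.96-fold in replicate 2 and 3.21-fold in replicate 1. On coding transcripts it was at 0.327-fold of that sum in replicate 2 and 0.444-fold in replicate 1. Whether Tpm3 exceeded the other tropomyosin genes therefore depended on the retained-intron model.
Tpm3 also has a near copy in the annotation. The gene Tpm3-rs7 has 78.6% of its 31-base words in Tpm3 and was listed with 16963 counts in replicate 2 and 10491 in replicate 1, or 263% of the counts of Tpm3 itself in replicate 2 and 99.6% in replicate 1. Tpm3 had 6439 counts in replicate 2 and 10528 in replicate 1, while Tpm3-rs7 was higher in replicate 2. Their sums were 23402 in replicate 2 and 21019 in replicate 1. The deposited posterior SD of the Tpm3 count was 43.9 counts in replicate 2 and 26.8 in replicate 1, small beside these numbers. How the reads were split between Tpm3 and Tpm3-rs7 could not be checked here. The level of Tpm3 and its difference between libraries are uncertain for this reason.

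**Figure D3:**
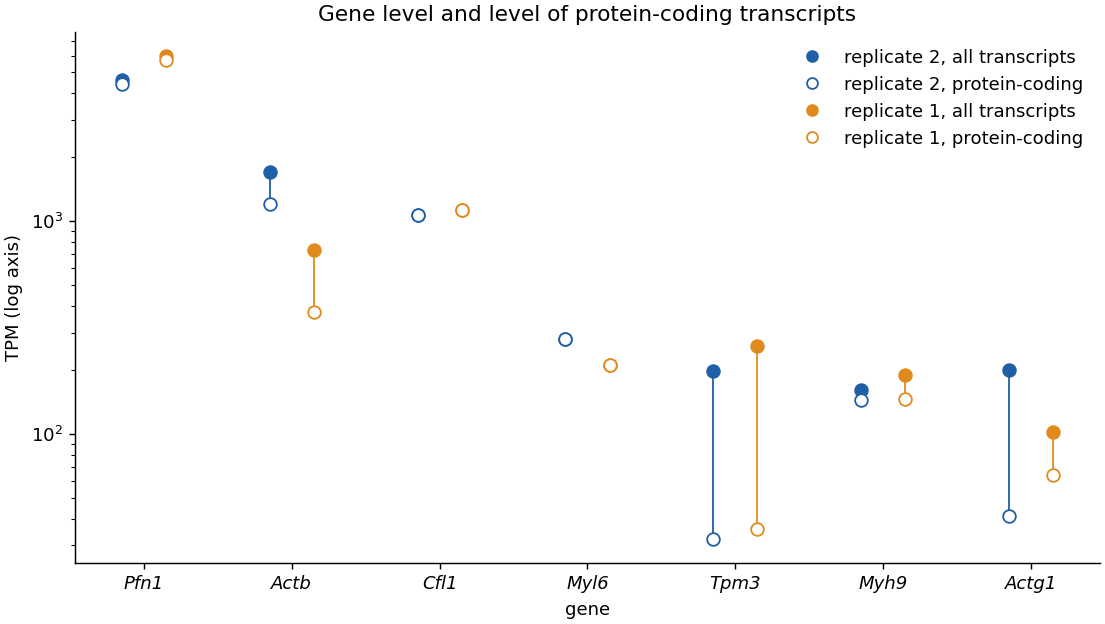
TPM on a log axis for the 7 genes above 100 TPM, as the sum of all transcripts (filled) and of protein-coding transcripts (open), in replicate 2 (blue) and replicate 1 (orange). The 2 points of a library part most for Tpm3 in both libraries and for Actg1 in replicate 2, and for Actg1 the open points stand in the opposite order from the filled ones.

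In the order of mean TPM, 3 neighbouring pairs overlapped between the libraries and cannot be ranked, namely Actb with Cfl1, Myl6 with Tpm3, and Myh9 with Actg1. Pfn1 lay above Actb in every library, and Cfl1 above Myl6. Tpm3 lay above Myh9 by a narrow margin, with a lowest value of 197 TPM against a highest of 190 TPM. On coding transcripts that order was reversed, with Tpm3 at 32.3 in replicate 2 and 35.6 TPM in replicate 1 and Myh9 at 144 in replicate 2 and 146 TPM in replicate 1. Actg1, Tmsb10, Tmsb4x and Myh10 followed in that order without overlap of the library values, although the counting intervals of Tmsb4x and Myh10 overlapped in replicate 2. On the deposited posterior mean TPM these last 2 stood in the opposite order, with Myh10 at 0.49 in replicate 2 and 0.39 in replicate 1 and Tmsb4x at 0.21 in replicate 2 and 0.22 in replicate 1. Models with 0 counts and a posterior SD of 0 held part of that Myh10 value, led by Myh10-209 with 33.9% in replicate 2 and 35.0% in replicate 1. With counts this low Tmsb4x and Myh10 cannot be ranked.

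The libraries were compared gene by gene with an exact two-sided binomial test on counts scaled by TMM (trimmed mean of M values), with Benjamini-Hochberg adjustment at 0.05 over the 10863 genes whose counts averaged 10 or more. This test compares 2 libraries and holds counting error only. It called 7502 genes, 69.1% of those tested. Of the 8 cytoskeleton genes that passed the count minimum 7 were called, a share to be read against that background. Genes at least 2-fold higher in replicate 2 made up 7.73% of those tested, and 1 of the 8 was among them, Actb. Genes at least 2-fold higher in replicate 1 made up 2.00% of those tested, and 0 of the 8 were among them.
Actb was 2.52-fold higher in replicate 2, from 95842 counts against 54309 in replicate 1, a log2 ratio of 1.33 with a counting SE of 0.0077. Its difference exceeded that of 94.5% of tested genes, and of 95.7% of the 232 genes within a factor of 2 of its mean count. Actg1 was 1.59-fold higher in replicate 2 by the same measure, with a log2 ratio of 0.67 and an exact binomial adjusted p of 2.36e-197. Myl6 was 1.43-fold higher in replicate 2, from 6493 counts in replicate 2 and 6467 in replicate 1, with an exact binomial adjusted p of 4.14e-92. The differences of Actg1 and Myl6 exceeded those of 80.6% and 72.6% of tested genes.
Pfn1 and Tpm3 were called lower in replicate 2, each with a log2 ratio of -0.19, which exceeded the difference of 33.2% and 33.7% of tested genes. Cfl1 and Myh9 had log2 ratios of 0.036 and 0.053 with TMM and of -0.070 and -0.054 with library totals, so their direction depended on the scaling. Library totals put the median of all tested genes at -0.12, against -0.01 with TMM, and 39.2% of calls higher in replicate 2, against 50.2% with TMM. Relative to the median gene the log2 values were 0.05 for Cfl1 and 0.06 for Myh9 under either scaling. Tmsb10 had a log2 ratio of -0.02 with a counting SE of 0.42 and was not called (exact binomial adjusted p of 1). Tmsb4x and Myh10, with 8 and 4 counts in all, were not tested.
The differences in TPM were not the same as those in scaled counts. Mean transcript length enters TPM, and TMM scales the libraries otherwise than TPM does. Cfl1, at 1148 nt in both libraries, had log2 ratios of -0.074 in TPM and 0.036 in scaled counts. Myl6, at 665 nt in both, had 0.39 in TPM and 0.52 in scaled counts. For Actg1 the mean transcript length was 1132 nt in replicate 2 and 1462 nt in replicate 1. Its TPM ratio was 1.97 against 1.59 in scaled counts. When Tpm3 and Tpm3-rs7 were summed, an alternative chosen after seeing the data, the log2 ratio was 0.67 in place of -0.19, so its direction turned.

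**Figure D4:**
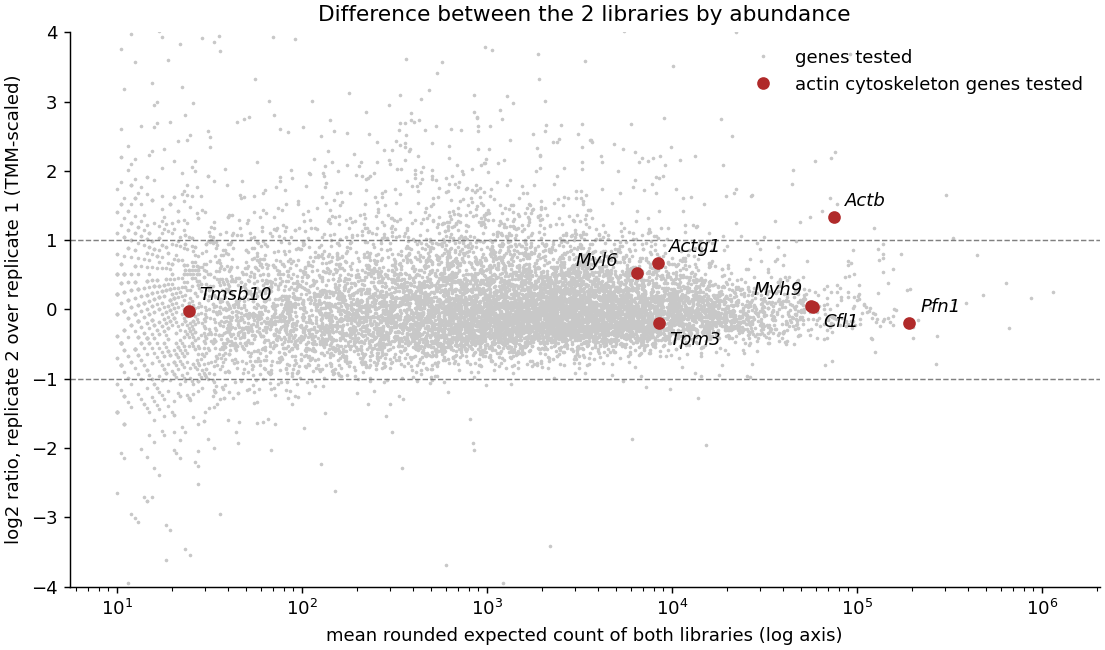
Log2 ratio of TMM-scaled counts, replicate 2 over replicate 1, against the mean count on a log axis, for the 10863 genes tested (grey) and the 8 cytoskeleton genes among them (red), with dashed lines at a 2-fold difference; 38 genes lie beyond the axis limit of 4. Actb stands above the upper line, Actg1 and Myl6 between 0 and that line, and the other 5 lie near 0.

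The 3 protein-coding genes whose levels in the 2 libraries lay nearest to Actb, by Euclidean distance of log2(TPM + 1), were Rps12 (distance 0.20), Tagln2 (0.37) and Gpi1 (0.40). Rps12 was at 1513 in replicate 2 and 799 TPM in replicate 1. All 3 were higher in replicate 2, which the measure of likeness fixes. With 2 libraries this likeness describes little beyond level and difference.

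The serum response factor SRF drives many actin genes in mouse cells by binding a motif called the CArG box. The 300-base promoters of the RefSeq table (GRCm38.p6, 250 bases before to 50 after each start) covered 9 of the 10 genes with 13 promoters, and Actb has no entry there. The box, whose pattern is its own reverse complement and so is read on both strands at once, was found in 2 of the 13, belonging to Actg1 and Myl6. Of all 32851 promoters 535 hold it, or 1.63%. The windows of 130 bases just before the RefSeq start are shown 5′ to 3′ with the box in capitals for these 2 promoters, because they hold a match. They were not chosen by the ratios between the libraries. In gene-level counts without near copies Actg1 and Myl6 had, besides Actb, the largest positive ratios among the 10 genes. On coding transcripts Actg1 had a log2 TPM ratio of -0.65, and Tpm3 with its near copy had a log2 count ratio of 0.67, above Myl6. The Actg1 window lies at chr11:120348496-120348625 and the Myl6 window, before an inner start of the gene, at chr10:128493010-128493139, both on the minus strand. The Actg1 window lies partly inside the gene as M21 bounds it, at 120348542, so its RefSeq start is also an inner one.
Actg1: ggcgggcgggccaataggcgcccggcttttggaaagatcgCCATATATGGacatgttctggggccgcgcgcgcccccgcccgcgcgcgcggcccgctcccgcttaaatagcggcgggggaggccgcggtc
Myl6: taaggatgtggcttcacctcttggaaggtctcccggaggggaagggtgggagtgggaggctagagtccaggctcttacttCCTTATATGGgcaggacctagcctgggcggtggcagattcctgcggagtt
The box begins 90 bases before the RefSeq start in Actg1 and 50 bases before it in Myl6. These are matches of letters. Binding was not measured, and whether the box bears on the differences between the libraries was not tested. Srf itself was at 80.6 in replicate 2 and 82.4 TPM in replicate 1. Its actin-sensing coactivator gene Mrtfa was at 17.7 ± 0.240 TPM and the partner gene Elk1 at 16.6 ± 2.14 TPM (mean ± SD, n = 2). Of the 7 genes of the SRF axis 4 were detected.

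Around the 10 genes, 155 further genes in 14 lists of actin regulators were examined. Of these 84 were detected, or 54.2%, against 39.0% of all protein-coding genes, and 30 had no count in either library. Their median was 2.88 TPM, against 0.025 TPM over all protein-coding genes, and the median of those detected was 36.4 TPM against 20.5 TPM.
Among partners of the actins, the 4 muscle actin genes were all undetected, with a summed level of 0.07 in replicate 2 and 0.02 TPM in replicate 1. Of the other monomer binders 3 of 10 were detected, the twinfilin genes Twf2 (46.2 ± 1.46 TPM) and Twf1 (9.23 TPM in each library) and the cyclase-associated protein gene Cap1 (18.8 ± 2.01 TPM; here and below mean ± SD, n = 2). All lay far below Pfn1. The cofilin list had 14 of 15 detected, led by the coronin genes Coro1b (211 ± 19.7 TPM) and Coro1c (78.9 ± 7.97 TPM) and the cofilin kinase gene Tesk1 (56.3 ± 2.21 TPM). These cofilin partners lay well below Cfl1 itself.
The Arp2/3 complex, which branches filaments, was the only one of the 14 lists with every gene detected, 10 of 10, and its median was 190.5 TPM. Arpc1b stood at 953 ± 51.8 TPM, Arpc2 at 708 ± 59.9 TPM and Arpc4 at 286 ± 53.0 TPM. Of its activators 12 of 16 were detected, led by the blood-cell gene Was at 206 ± 36.6 TPM, with Wasf2 (54.0 ± 4.62 TPM) and Abi1 (51.5 ± 17.9 TPM) next. Of the formins, which build unbranched filaments, 5 of 13 were detected, led by Diaph1 (77.1 ± 0.304 TPM), Inf2 (43.9 ± 3.92 TPM) and Diaph3 (22.97 ± 4.41 TPM). Of the capping and severing genes 6 of 12 were detected, led by Capzb (137 ± 34.2 TPM), Flii (123 ± 92.8 TPM) and Capg (29.3 ± 2.50 TPM). Flii stood at 189 in replicate 2 and 57.6 TPM in replicate 1, a wider gap than in its counts of 8727 in replicate 2 and 7999 in replicate 1, and it was under 2-fold apart in scaled counts.
Among partners of Myh9, none of the 9 other myosin II heavy chain genes was detected. Of the other light chain genes 3 of 10 were, the regulatory chains Myl12a and Myl12b and the essential chain Myl6b (18.8 ± 0.0849 TPM). Myl12a stood at 214 in replicate 2 and 80.1 TPM in replicate 1, and Myl12b at 75.7 in replicate 2 and 27.5 TPM in replicate 1. The regulatory chains, like Myl6, were higher in replicate 2, while Myl6b differed little in TPM. Of the genes that control myosin II 8 of 10 were detected, led by the phosphatase subunit gene Ppp1r12c (188 ± 28.9 TPM), with Cit (44.5 ± 5.91 TPM) and Cdc42bpa (17.7 ± 2.18 TPM) next. Of the other tropomyosins and the tropomodulins 3 of 10 were detected, Tpm1 (90.5 ± 13.9 TPM), Tmod3 (12.8 ± 2.58 TPM) and the red cell tropomodulin gene Tmod1 (1.815 ± 0.431 TPM).
The list called cross-linkers and anchors had 10 of 20 genes detected. Its highest were Vasp (663 ± 135 TPM), Actn4 (359 ± 56.6 TPM) and Ezr (322 ± 20.2 TPM). The name of the list does not state what each gene in it does.

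**Figure D5:**
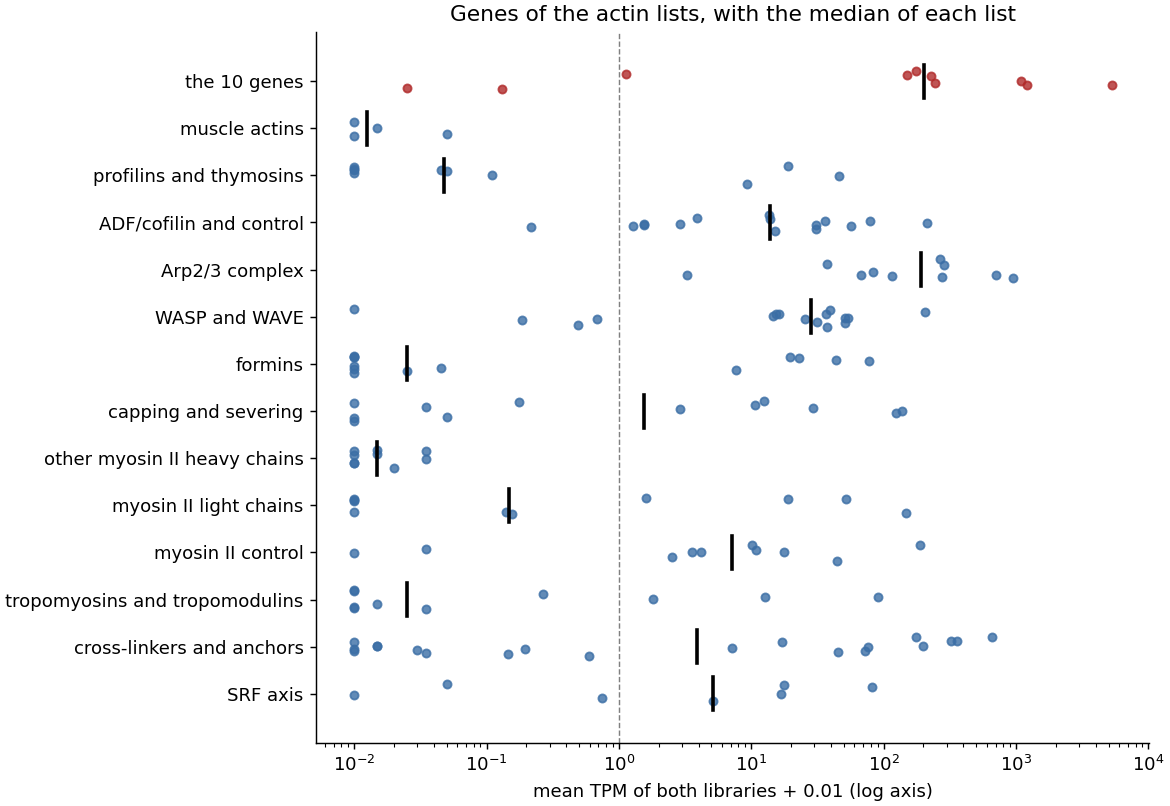
Mean TPM of both libraries plus 0.01, on a log axis, for the 10 genes (red) and for each gene of 13 of the 14 actin lists (blue), with the median of each list as a black bar and a dashed line at 1 TPM. The Arp2/3 complex is the list whose genes all lie right of the line, while muscle actins and other myosin II heavy chains all lie left of it.

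Between the libraries, 95 genes of these lists could be tested and 72 were called by the exact binomial test, beside 69.1% of all genes tested. Their median log2 ratio was 0.10 against -0.01 over all genes tested. At least 2-fold higher in replicate 2 were 9 of the 95, beside 7.73% of all genes tested, and at least 2-fold higher in replicate 1 were 0 of the 95, beside 2.00%. These shares lie near the background and say nothing particular of the lists. The 9 included Myl12a at 2.67-fold, Myl12b at 3.05-fold and the membrane linker gene Msn at 3.20-fold in scaled counts, named here after their values were seen. The summed erythroid markers were 20041 in replicate 2 and 17500 TPM in replicate 1, and their part in the higher Actb of replicate 2 was not tested.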

How the data were processed

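The members and the gene lists were chosen with earlier results of these data known. The deposited gene and transcript tables of 2 libraries hold expected counts (estimated counts, with a posterior SD of the count), TPM and FPKM, and for transcripts the percent of the gene's TPM, per the file headers. Per the labels and readme files, reads were placed on mm10 and counted over GENCODE M4. The aligner, quantifier and strand setting were not given in the sources used here, and so overlapping genes on opposite strands are uncertain. The 26345 rows that are not Ensembl genes held 1 count in replicate 2 and 0 in replicate 1 and were left out.

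Names, classes and positions came from GENCODE M21 (42462 of 43346 genes matched), and 1 listed symbol found no match. Of the 14 actin lists 1 enters the counts over all lists but is not reported here. Transcript classes are those of M21. Named genes were all 10 members, the 3 highest detected genes of each actin list and the highest of each marker list with a detected gene. The 3 genes nearest Actb were named too, and some but not all genes with at least 50% of their 31-base words in a member. Below that share, Lrrc58 and Gm15725 were named for the words they share with Actb, and Snx32 for its overlap with Cfl1.

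Expected counts were rounded and scaled by TMM in edgeR 4.0.16 (R 4.3.3), and libraries were compared by exact two-sided binomial tests in scipy 1.17.1. With 1 library on each side, edgeR's own test has no residual degrees of freedom. Counts for the 10863 genes of replicate 2 against replicate 1 were simulated with Poisson error alone, with 50 genes changed at each fold. On these the test called 94.0% of genes raised 2-fold, 84.0% lowered to 0.5, 100% raised 4-fold and 92.0% lowered to 0.25. It called 0.0844% of 10663 unchanged genes. The test assumes the same error, so these shares cannot show how it performs on real libraries. Intervals at 95% hold counting error alone and leave out the spread between libraries and the error of assigning reads. They may be too narrow even for counting, because PCR reads without molecular identifiers are not separate molecules. Alternatives were DESeq2 1.42.0 size factors, library totals, count filters, FPKM, posterior mean TPM, TPM minimums and each library alone. Chosen after seeing the data were coding transcripts only and near copies included. No pairing exists within 1 group.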

Additional observations from a re-analysis of the deposited data

How the results depend on the processing

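Depth limits the thymosin genes and Myh10, and for the other 7 genes the spread between the libraries exceeds counting error. No paired analysis was possible because there is 1 group. The counts of detected members and of pathway genes stayed within 1.5 times under every alternative run, as did the count of genes called between libraries (6997 to 7821). For the members this could not fail. Of the 10, 7 lie above 100 TPM in both libraries, and the highest minimum tried was 10 TPM. Genes at least 2-fold apart numbered 1057, 4150 with no filter, 646 where the mean count reached 100, and 633 on TPM with a pseudocount of 1. With 2 libraries, leaving out 1 leaves the other's value: the mean of Actb becomes 1696 TPM without replicate 1 and 736 TPM without replicate 2. The second moves it by over 1.5 times. So does leaving out replicate 1 for Pfn1 (2.42), Cfl1 (0.565) and the thymosins (0.000622) over the actins, and Myh9 over Myh10 (8082). The TPM ratios of Myh9 over Myh10, here and below, divide by Myh10 levels given to 2 decimals. These were 0.02 in replicate 2 and 0.01 in replicate 1, from 2 counts in each. The size of the ratio and of this move therefore depends on that rounding. On counts the ratio was 23807.5 in replicate 2 and 32788.5 in replicate 1.

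On expected counts the mean ratio was 8.78 for Actb over Actg1, 28298 for Myh9 over Myh10, 0.117 for Myl6 over Myh9, 0.161 for Tmsb4x over Tmsb10, 3.29 for Pfn1 over Cfl1, 0.000383 for thymosins over actins and 1.43 for Tpm3 over the other tropomyosins, since counts are not divided by length. On posterior mean TPM it was 403 for Myh9 over Myh10 and 0.179 for Tmsb4x over Tmsb10. On coding transcripts only, it was 17.6 for Actb over Actg1, 0.00195 for thymosins over actins, 8.25 for Pfn1 and 1.71 for Cfl1 over the actins, and 0.385 for Tpm3. On TPM these means were 7.84 for Actb over Actg1, 13556 for Myh9 over Myh10, 1.42 for Myl6 over Myh9, 0.107 for Tmsb4x over Tmsb10, 4.78 for Pfn1 over Cfl1, 0.00109 for thymosins, 4.76 for Pfn1 and 0.955 for Cfl1 over actins, and 2.59 for Tpm3.

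The log2 ratio between libraries turned negative for Cfl1 with library totals (-0.070), TPM (-0.074) and posterior mean TPM (-0.077), and for Myh9 with the same (-0.054, -0.24 and -0.24). For Tpm3 it turned to 0.67 with the near copy included. The causes were not tested, except that library totals shift all genes alike.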
